A study of Macaca fascicularis with 56 samples.

Results

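Genes known from basophils, mast cells and eosinophils were followed in macaque blood: CPA3, CMA1, HDC, MS4A2, FCER1A, GATA2, CLC and CCR3. They were taken by name, and each was read by the probe set that carried no other gene symbol, the one with the highest mean log2 value over all 56 arrays where there were several. Of the 8 genes, 6 had such a probe set. MS4A2 (the beta chain of the IgE receptor) and CCR3 (the eotaxin receptor) were not named by a probe set of their own in the probe table, and they were not analysed here. CLC had a probe set but lay above the array median on 0 of the 56 arrays and was not tested. The 5 genes left are part of 15953 genes tested, out of 19775 with a probe set of their own.

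In the blood of macaques given LR12, by the series title after endotoxin, the transcripts of 4 genes named for mast cells and basophils fell after 0 h. CMA1, which encodes the granule protease chymase, fell by 4.50 on the log2 scale by 8 h, or by 3.89 without the 1 animal that stood far below the others. The genes of carboxypeptidase A3 (CPA3), histidine decarboxylase (HDC) and the alpha chain of the IgE receptor (FCER1A) fell as well, in 6 of 6 animals each at 4 h and at 8 h. The calls for HDC were lost without 1 of these animals. Neither CPA3 nor HDC would have passed the filter on low values without the arrays of 0 and 2 h, where they were high. For GATA2, a transcription factor of the same cells, the 3 probe sets gave different changes, from 0.07 to -1.74 at 4 h. In the peptide control arm FCER1A fell at 4 h and CPA3 and CMA1 at 8 h, while a fit blocked by animal called 3 of the 5 tested genes lower by 4 h and 4 by 8 h. No change passed the test among vehicle animals. There CPA3, CMA1 and FCER1A were nonetheless lower in 4 of 4 animals at 4 h and at 8 h. Between arms the only difference called was CMA1 at 8 h, lower with LR12 than with vehicle. None was called between LR12 and the peptide control at any hour. Across arrays CMA1 and FCER1A varied most closely with genes of lymphocytes, among them CCL5 (r = 0.85 and 0.80). Whether the CMA1 probes also read the transcript of a neighbouring granzyme gene was not tested.

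The series measured whole blood RNA of 14 cynomolgus macaques at 0, 2, 4 and 8 h, with 1 array per animal and hour. By its title, the animals met endotoxin first and LR12, or a scrambled LR12, afterwards. LR12 is a short TREML1-derived peptide made to bind what would otherwise engage TREM-1, a receptor that amplifies inflammatory signalling in neutrophils and monocytes. Vehicle went to 4 animals, numbered Y31301 through Y31304. A peptide control went to another 4, Y31305 through Y31308, and LR12 to 6, Y31309 through Y31314. The labels give no dose, age or sex, do not say whether the vehicle animals received endotoxin, and do not say which event hour 0 marks. No group is stated to be free of endotoxin, so a change over time is not a contrast with untreated animals.

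Mast cells live in tissue and basophils circulate. Both store histamine, which histidine decarboxylase makes from histidine, and both carry the high-affinity IgE receptor, whose alpha chain binds IgE while the beta and gamma chains pass the signal on. Chymase and carboxypeptidase A3 are mast cell granule proteases, and carboxypeptidase A3 is also found in basophils. FCER1A is also expressed by dendritic cells, and GATA2 by blood progenitors. CLC encodes galectin-10, which forms Charcot-Leyden crystals in eosinophils and basophils.

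The labelled tissue was whole blood, in which these cells are rare. The filter on low values was passed by 18 of 24 other mast cell and basophil genes and by 14 of 20 other eosinophil genes. Of the mast cell tryptase genes, TPSB2 and TPSG1 each lay above the array median on 3 of 56 arrays, and TPSAB1 on 24. MRGPRX2, a receptor of connective tissue mast cells, did so on 0 arrays and IL4, a basophil cytokine, on 2. Among eosinophil granule genes, RNASE2 and PRG3 reached the array median on 3 arrays each and PRG2 on 12. Markers above it more often were KIT, the stem cell factor receptor, on 55 arrays, PTGDR2, a prostaglandin receptor of basophils and eosinophils, on 56, SIGLEC8 on 39, ENPP3 on 28 and EPX, eosinophil peroxidase, on 28. CLC ran from -1.55 to 4.11 in log2 intensity. The probes were designed on human sequence, so a low value does not separate a missing transcript from a poor match to macaque RNA, and levels are compared only between groups of the same gene. The genes are therefore named singly below, with no cell type attached.

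Each array had been scaled by the submitters to one trimmed mean, but the middle of the arrays moved. The median of an array, between 12.9 and 23.5 in linear units, averaged 18.4 ± 2.04 (SD, 14 arrays) at 0 h against 15.9 ± 1.84 at 8 h. The median change over all genes in the LR12 arm was -0.18 at 2 h, -0.29 at 4 h and -0.27 at 8 h, so values centred on the array median are given beside the changes where they matter. The poly-A control probe sets, spiked in for labelling, fell into 24 arrays with high and 32 with low values, a split that no label names, and the high arrays numbered 6, 2, 8 and 8 of 14 at 0, 2, 4 and 8 h. With this split as a covariate, each of the 15 calls made for the genes below was kept. The 3′ minus 5′ signal of the GAPDH control probe sets, a sign of RNA quality, went from a mean of 1.21 at 0 h to 0.67 at 8 h on the log2 scale in the LR12 arm. It stood at 1.01 and then 0.70 in the peptide control arm and at 0.93 and then 0.97 in the vehicle arm. The same measure for the ACTB control probe sets was 1.73 and then 1.72 in the LR12 arm. It was 1.34 and then 1.45 in the peptide control arm and 1.52 and then 1.82 in the vehicle arm. The part of either measure in the results was not tested. The number of arrays limits the precision. In whole blood, fewer cells of a type and less RNA per cell cannot be told apart.

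**Figure D1:**
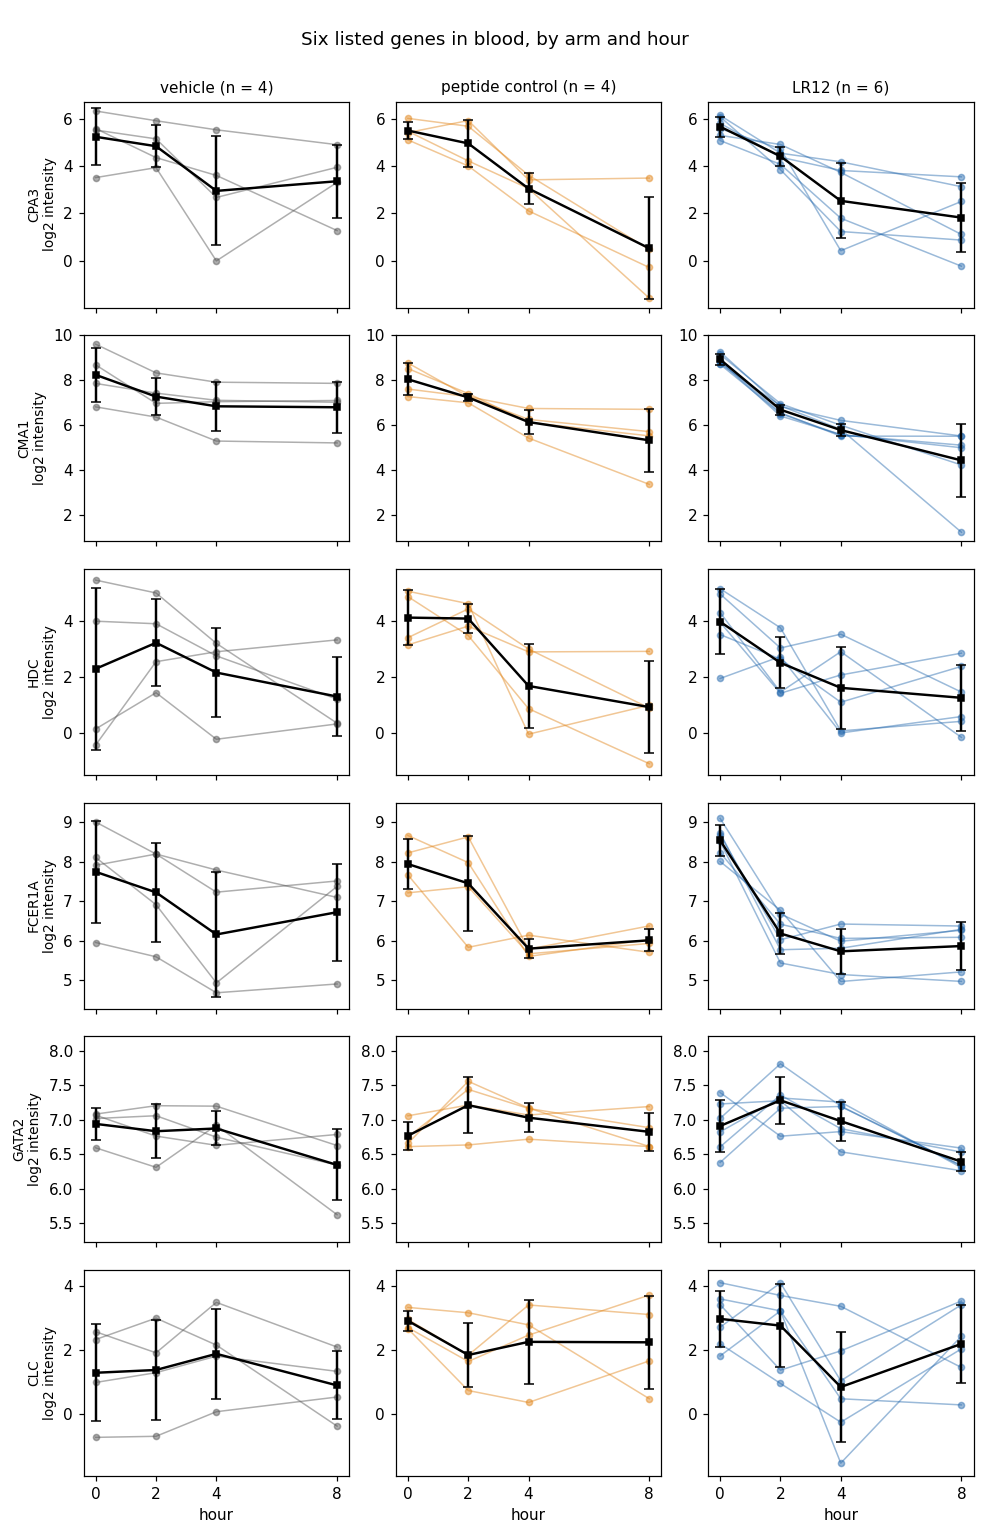
Log2 intensity of the 6 genes with a probe set (vertical axis, 1 row of panels per gene) against the hour (0, 2, 4 and 8 h), in 1 column per arm, with a thin line per animal and black squares for the mean ± SD. All 6 LR12 animals lie between 8.72 and 9.27 for CMA1 at 0 h and between 1.23 and 5.52 at 8 h, while the CLC ranges of the LR12 arm overlap between hours.

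CMA1 started high and was lower than at 0 h at every later hour in the LR12 arm. Its log2 intensity there had a lowest, median and highest value of 8.72, 8.85 and 9.27 at 0 h, then 6.41, 6.70 and 6.96 at 2 h. At 4 h these values were 5.52, 5.70 and 6.22, and at 8 h 1.23, 5.06 and 5.52. The ranges of 0 and 2 h did not overlap, nor did those of 2 and 4 h. All 6 animals were lower at 8 h than at 4 h, with changes from -4.59 to -0.0025, but these ranges overlap. The step from 4 to 8 h was not tested. The change from 0 h was -2.24 ± 0.50 (SE) at 2 h (limma, Benjamini-Hochberg adjusted p = 0.000407), -3.15 ± 0.50 at 4 h (adjusted p = 2.42e-06) and -4.50 ± 0.50 at 8 h (adjusted p = 1.99e-08). The animal Y31311 held the lowest value at 8 h, 1.23, against 4.23 for the next animal. Without it the 8 h change was -3.89. Centred on the array median the change was -4.22, and with an offset of 16 added before the logarithm, which damps low values, it was a 11.9-fold difference.

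In the peptide control arm CMA1 was lower in 4 of 4 animals at each hour. The 4 animals read 7.61, 8.78, 8.53 and 7.28 at 0 h, then 6.71, 5.72, 5.53 and 3.37 at 8 h. In between their mean was 7.24 ± 0.17 (SD, n = 4) at 2 h, and they read 6.75, 6.26, 6.13 and 5.43 at 4 h. The 0 and 8 h ranges do not overlap, and the change was -2.72 ± 0.61 (limma adjusted p = 0.0248). At 4 h the change of -1.91 ± 0.61 had an adjusted p of 0.0562 in limma, or 0.00928 when blocked by animal. The 8 h call was lost when Y31306, Y31307 or Y31308 was left out, with limma adjusted p values of 0.418, 0.236 and 0.111.

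In the vehicle arm CMA1 was also lower in 4 of 4 animals at each hour, without a call. The animals read 9.61, 8.69, 6.82 and 7.86 at 0 h, then 7.87, 7.11, 5.21 and 7.03 at 8 h, ranges that overlap. They read 8.33, 6.98, 6.37 and 7.43 at 2 h and 7.92, 7.05, 5.30 and 7.11 at 4 h. The changes were -0.97, -1.40 and -1.44 at 2, 4 and 8 h. At 0 h the SD between animals was 1.19 in the vehicle arm and 0.23 in the LR12 arm, and at 8 h it was 1.13 and 1.64.

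CPA3 fell at 4 and 8 h in the LR12 arm, and its values ran into the low end of the arrays. It was above the array median on 13, 10, 2 and 1 of 14 arrays at 0, 2, 4 and 8 h. Without the early arrays, where it was high, it would not have entered the test. With LR12 its lowest, median and highest values were 5.09, 5.71 and 6.16 at 0 h, 3.86, 4.47 and 4.93 at 2 h, 0.42, 2.77 and 4.19 at 4 h, then -0.24, 1.81 and 3.55 at 8 h. The ranges at 0 and 2 h do not overlap, yet the change of -1.26 ± 0.72 at 2 h did not pass the test (limma adjusted p = 0.192). The changes of -3.15 ± 0.72 at 4 h (adjusted p = 0.000434) and -3.86 ± 0.72 at 8 h (adjusted p = 6.81e-05) passed it in limma.

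CPA3 also fell in the peptide control arm, at 8 h. The animals read 5.49, 6.03, 5.43 and 5.12 at 0 h, 4.23, 5.70, 5.94 and 4.01 at 2 h, 3.06, 3.62, 3.43 and 2.11 at 4 h, then -1.59, 0.47, 3.50 and -0.29 at 8 h. The 2 and 4 h ranges do not overlap. At 8 h the change was -5.00 ± 0.88 (limma adjusted p = 0.00395). At 4 h it was -2.46 ± 0.88, with a limma adjusted p of 0.0815 and, with the animal as a block, 0.0203. Leaving out Y31306 ended the 8 h call (limma adjusted p = 0.188).

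The size of the CPA3 fall depends on how low values are read. At 8 h, 3 of 4 peptide control animals, 3 of 6 LR12 animals and 1 of 4 vehicle animals lay below the 20th percentile of their array. The fold at 8 h was 31.9 in the peptide control arm and 14.5 in the LR12 arm, and 3.27 and 3.26 with an offset of 16. In the vehicle arm the animals read 6.35, 5.60, 3.52 and 5.54 at 0 h, then 4.92, 1.27, 3.32 and 3.96 at 8 h. At 4 h they read 5.55, 3.61, -0.01 and 2.68, and the lowest of these belonged to Y31303. All 4 were lower at 8 h than at 0 h, and the change of -1.89 had no call.

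HDC, the gene of the enzyme that makes histamine, fell at 4 and 8 h in the LR12 arm from a low start. It was above the array median on 6 of 14 arrays at 0 h, 3 at 2 h and 0 at 4 h and 8 h, so it entered the test only through the early arrays, where it was high. LR12 animals had a lowest, median and highest value of 1.94, 4.12 and 5.14 at 0 h, then -0.16, 1.02 and 2.84 at 8 h, and these ranges overlap. The changes were -1.47 ± 0.82 at 2 h (limma adjusted p = 0.181), -2.36 at 4 h (adjusted p = 0.0194) and -2.72 at 8 h (adjusted p = 0.00989), with 6 of 6 animals lower at 4 and 8 h. Both calls were lost without Y31312 (limma adjusted p = 0.127 and 0.0603). With an offset of 16 the 8 h change was -0.83.

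Peptide control animals read 4.86, 5.05, 3.40 and 3.14 for HDC at 0 h and -1.10, 0.98, 0.88 and 2.91 at 8 h. The 2 ranges do not overlap, and the change of -3.19 ± 1.01 had a limma adjusted p of 0.104, and of 0.0312 with the animal as a block. At 4 h these animals read 0.86, -0.05, 2.99 and 2.89, all below their 2 h values of 3.47, 4.61, 4.42 and 3.81. The vehicle animals were spread from the start, at 5.45, -0.43, 0.14 and 3.98 at 0 h, then 0.34, 3.32, 0.32 and 1.20 at 8 h. In that arm 2 of 4 animals were lower at 8 h, and the change of -0.99 was not called. At 8 h, 10 of the 14 arrays held HDC below the 20th percentile.

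FCER1A, the chain of the receptor that holds IgE, was above the array median on all 56 arrays. In the LR12 arm it fell between 0 and 2 h. The lowest, median and highest values were 8.01, 8.60 and 9.10 at 0 h, 5.43, 6.22 and 6.77 at 2 h, 4.96, 5.90 and 6.42 at 4 h, then 4.97, 6.17 and 6.37 at 8 h. The 0 and 2 h ranges do not overlap, while those of 2, 4 and 8 h do. The changes were -2.36 ± 0.48 at 2 h (limma adjusted p = 0.000111), -2.82 at 4 h (adjusted p = 6.68e-06) and -2.68 at 8 h (adjusted p = 3.55e-05), with 6 of 6 animals lower each time.

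At 2 h FCER1A was lower than at 0 h in 2 of 4 peptide control animals, which read 7.37, 8.63, 7.98 and 5.83 after 7.21, 8.23, 8.67 and 7.67 at 0 h. At 4 h they read 5.67, 5.78, 5.60 and 6.14, all below the 0 h values, and the change of -2.15 ± 0.58 passed the test (limma adjusted p = 0.0282). At 8 h they read 5.93, 6.37, 6.03 and 5.70, a change of -1.93 with a limma adjusted p of 0.0892, or 0.0102 when blocked by animal. The 4 h call was lost without Y31306, Y31307 or Y31308 (limma adjusted p = 0.239, 0.238 and 0.0833).

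In the vehicle arm FCER1A read 9.01, 8.11, 5.95 and 7.91 at 0 h, 8.20, 6.91, 5.59 and 8.20 at 2 h, 7.79, 4.93, 4.68 and 7.23 at 4 h, then 7.10, 7.37, 4.90 and 7.51 at 8 h. Animal Y31303 was the lowest at 0 h and stayed low, and at 8 h it stood at 4.90 against 7.10 for the next animal. The changes of -0.52, -1.59 and -1.02 had no call. Y31303 also held the lowest 0 h values of all 14 animals for CPA3 and CMA1. A second FCER1A probe set lay above the array median on 1 of 56 arrays and gave -0.75, -0.61 and -1.58 in the LR12 arm, none of them called.

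**Figure D2:**
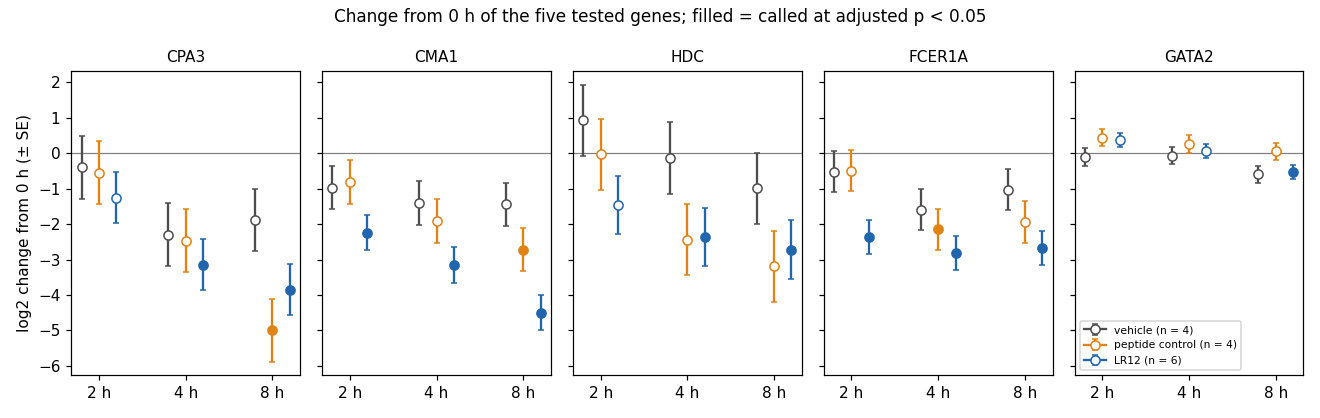
Change in log2 intensity from 0 h (vertical axis) at 2, 4 and 8 h in each arm for the 5 tested genes, as the mean of each arm with its limma standard error, where filled points passed the test. For CMA1 the LR12 means lie at -2.24, -3.15 and -4.50, and for FCER1A at -2.36, -2.82 and -2.68.

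GATA2, a transcription factor of mast cells, basophils and progenitors, was above the array median on all 56 arrays and moved within a narrow band. In the LR12 arm its lowest, median and highest values were 6.38, 6.92 and 7.40 at 0 h, 6.76, 7.30 and 7.81 at 2 h, 6.54, 7.03 and 7.26 at 4 h, then 6.26, 6.33 and 6.59 at 8 h. The change of -0.52 ± 0.20 at 8 h was called (limma adjusted p = 0.0421) with 6 of 6 animals lower, but centred on the array median it was -0.24 (adjusted p = 0.452) and not called. With quantile normalization GATA2 was instead called higher at 2 h, with a change of 0.64 (limma adjusted p = 0.0156). The 8 h call was also lost when 1 of 6 animals was left out (Y31304, Y31306, Y31309, Y31312, Y31313 or Y31314), with limma adjusted p values from 0.0516 to 0.146. In the peptide control arm GATA2 stood at 6.61, 6.75, 6.66 and 7.06 at 0 h and at 6.61, 6.89, 6.61 and 7.19 at 8 h, and in the vehicle arm at 7.07, 6.59, 7.08 and 7.02 and then 6.79, 5.62, 6.63 and 6.34. No change of GATA2 was called in these arms. At 2 h the peptide control animals read 6.64, 7.44, 7.56 and 7.22, with a change of 0.44 that did not pass the test.

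The 3 probe sets of GATA2 disagreed. At 4 h in the LR12 arm they gave 0.07, -0.17 and -1.74, and only the last was called (limma adjusted p = 0.000298). At 8 h they gave -0.52, -0.29 and -0.70, of which the first was called. The direction of GATA2 at 4 h was therefore not settled by these probe sets.

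**Figure D3:**
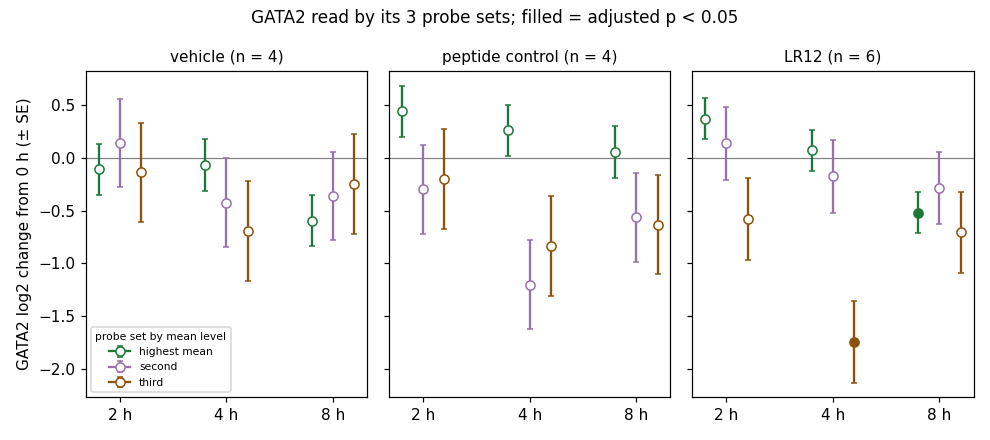
Change in log2 intensity from 0 h (vertical axis) at 2, 4 and 8 h for the 3 probe sets of GATA2 in each arm, with limma standard errors and filled points where the adjusted p was below 0.05. At 4 h in the LR12 arm the first probe set lies at 0.07 and the third at -1.74.

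Of the eosinophil genes listed, CLC was the one with a probe set. Its means in the LR12 arm were 2.97, 2.76, 0.84 and 2.19 at 0, 2, 4 and 8 h, with overlapping ranges. It has no test here.

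Counted together in the LR12 arm, 2 of the 5 tested genes were called lower at 2 h, where 22.0% of all tested genes were, 4 at 4 h (26.1% of all genes) and 5 at 8 h (20.5%). None was called higher, against 10.1%, 10.9% and 8.68% of all genes. With arrays centred, 18.8%, 16.9% and 9.85% of all genes were lower and 10.4%, 15.5% and 13.8% higher at these hours. With that centring 2, 4 and 4 of the 5 genes were called lower and 0 higher. The median change of the 5 was -1.47, -2.82 and -2.72, against -0.18, -0.29 and -0.27 over all genes. Without the arrays of 0 and 2 h, where they were high, CPA3 and HDC would not have passed the filter. These counts therefore describe the genes and support no statement on the list. In the peptide control arm limma called 0 at 2 h (1.11% of all genes lower), where none of the 5 had an unadjusted p below 0.05, 1 at 4 h (2.97%) and 2 at 8 h (0.244%). Blocked by animal, 3 genes were called at 4 h in that arm (10.6% of all genes) and 4 at 8 h (1.93%). Among vehicle animals limma called 0 of the 5 at any hour, with 0%, 0.0125% and 0.0251% of all genes lower, and 0, 3 and 3 of the 5 had an unadjusted p below 0.05. At 2 h it called no gene in either direction, and 1003 genes had an unadjusted p below 0.05.

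Direct comparison of the arms gave 1 call. CMA1 at 8 h was lower in the LR12 arm than in the vehicle arm, with a difference of -2.37 ± 0.56 (limma adjusted p = 0.0144), where 1.79% of all genes were lower. The LR12 animals lay between 1.23 and 5.52 and the vehicle animals between 5.21 and 7.87, so the ranges overlap. Without Y31311, the LR12 animal with the lowest value, the difference was -1.73 and the adjusted p 0.0595. Without the vehicle animals Y31301, Y31302 or Y31304 the adjusted p was 0.099, 0.100 and 0.0714 in limma. Against the peptide control at 8 h the CMA1 difference was -0.90 ± 0.56 (adjusted p = 0.573). No other difference of the 5 genes between arms was called by limma, and over all 60 such tests 5 had an unadjusted p below 0.05. LR12 against vehicle had 0.00627%, 11.3% and 7.61% of all genes lower at 0, 2 and 4 h. LR12 against the peptide control had 0%, 2.72%, 0.984% and 0.0125% lower at 0, 2, 4 and 8 h, while 0% of genes were lower in the peptide control arm than in the vehicle arm at any of the 4 hours.

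The change from 0 h can also be compared between arms. This subtracts each arm's own start, so a gap between arms at 0 h enters the difference. None of these 45 differences was called in limma for the 5 genes, though 7 had an unadjusted p below 0.05, with 1.41%, 0.113% and 0% of all genes lower for the changes to 2, 4 and 8 h between LR12 and vehicle and 0% for the other pairs of arms. For the CMA1 change to 8 h, LR12 minus vehicle was -3.05 ± 0.79 (adjusted p = 0.155, and 0.0158 with the animal as a block, where 1.09% of all genes were called lower). For the FCER1A change to 2 h it was -1.84 (adjusted p = 0.165, and 0.0377 with the block, where 7.80% of all genes were). Between LR12 and the peptide control the CMA1 differences were -1.43, -1.24 and -1.78 at 2, 4 and 8 h, none called. The CMA1 levels of these arms differed by 0.88 at 0 h, then by -0.55, -0.36 and -0.90, none called. Mean CMA1 at 0 h was 8.93 with LR12, 8.05 with the peptide control and 8.25 with vehicle. For FCER1A these means were 8.54, 7.94 and 7.74.

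Exact permutation of the animals' own changes, two-sided, was run for 45 comparisons of 1 gene, hour and pair of arms. The p values below are not adjusted, and gaps between arms at 0 h enter these changes too. After Benjamini-Hochberg adjustment over the 45, none was below 0.05. For CMA1 it gave 0.00952 for LR12 against vehicle at 2, 4 and 8 h and against the peptide control at 2 and 4 h, and 0.0571 against the peptide control at 8 h. The value 0.00952 is the smallest that 6 against 4 animals allow. FCER1A gave an exact p of 0.00952 against vehicle at 2 and 8 h and 0.0286 against the peptide control at 2 h. GATA2 gave 0.00952 for LR12 against the peptide control at 8 h, HDC 0.0381 against vehicle at 2 h by the exact test, and CPA3 0.0857 against vehicle at 2 h and at 8 h. Between the 2 control arms, GATA2 at 8 h had an exact p of 0.0286 and CPA3 at 8 h of 0.0571.

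Across arrays, CMA1 varied most closely with genes of cytotoxic lymphocytes. The 3 genes with the highest correlation to it over the 56 arrays, after centring each array on its median, were GZMH (granzyme H, r = 0.85), CCL5 (a chemokine of T and natural killer cells, r = 0.85) and STAT4 (a transcription factor of interleukin-12 signalling, r = 0.84). With each group's mean removed the values were 0.70, 0.71 and 0.62. Against the 18 other mast cell and basophil genes tested, the median r of CMA1 was -0.07 and the highest was 0.59, for KIT. Against the 18 T cell markers the median was 0.61, and against the 9 natural killer cell markers it was 0.55 with GZMB at 0.83. With group means removed the medians of these lists were -0.04, 0.40 and 0.46. The mast cell and basophil list is mixed in level, from SRGN, above the array median on 56 arrays, to ADCYAP1, on 4. These arrays share animals, hours and arms, so the values are a description.

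GZMH itself fell with LR12, with changes of -2.62 by 2 h, -3.29 by 4 h and -3.72 by 8 h. In the peptide control arm GZMH fell by 2.34 at 8 h (limma adjusted p = 0.0350). CMA1 is placed next to such genes in the genome. In the macaque RefSeq annotation of the assembly T2T-MFA8v1.1, the 3 protein-coding genes that follow CMA1 are CTSG, GZMH and GZMB, which encode cathepsin G, granzyme H and granzyme B, proteases of the same family. Whether the human CMA1 probes also read another of these transcripts in macaque RNA was not tested.

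The other genes had other neighbours in expression. CPA3 was closest to SFRP4 (r = 0.79), a secreted Wnt modulator, EPDR1 (0.70) and FCER1A (0.67). With group means removed these values were 0.63, 0.26 and 0.48. The SFRP4 change by 8 h was -4.36 with LR12, -3.91 in the peptide control arm and -4.25 in the vehicle arm, the last not called. For EPDR1 it was -4.89, -4.12 and -3.85, called in each arm. HDC was closest to COL23A1 (0.64), CPA3 (0.60) and BTNL8 (0.59). FCER1A was closest to CCL5 (0.80), PTPRCAP (0.77) and ADGRG1 (0.77), genes of lymphocytes. GATA2 was closest to OLIG1 (0.68), DNAJA1 (0.67) and JOSD1 (0.66), and OLIG1 rose by 2.54 at 2 h and 1.98 at 4 h in the LR12 arm.

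Among themselves CPA3, CMA1 and FCER1A varied together over the 56 arrays, with r between 0.65 and 0.73. With group means removed r was lower, at 0.24 for CPA3 and CMA1, 0.48 for CPA3 and FCER1A and 0.49 for CMA1 and FCER1A. At 0 h, over 14 arrays, the r of CMA1 and FCER1A was 0.87, that of CPA3 and FCER1A 0.85 and that of CPA3 and CMA1 0.73. These arrays include Y31303, the lowest animal at 0 h for each of these genes. GATA2 had r between -0.22 and 0.04 with the other 4.

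Other mast cell and basophil genes did not move as one group in the LR12 arm. Of 24 listed, 18 were tested, and 4 were called higher and 1 lower at 2 h, 4 and 2 at 4 h, then 3 and 2 at 8 h. Of all genes, 10.1%, 10.9% and 8.68% were called higher and 22.0%, 26.1% and 20.5% lower, which is also the background for the lists that follow. The median change of the 18 genes was 0.20, 0.16 and 0.04. KIT fell by 2.02 at 4 h (limma adjusted p = 0.0148) and 2.25 at 8 h (adjusted p = 0.00955). HPGD, which inactivates prostaglandins, fell by 1.83 at 4 h, and GATA1 fell by 1.36 at 8 h, both without a call once arrays were centred (adjusted p = 0.0851 and 0.112). ALOX5, the 5-lipoxygenase that starts leukotriene synthesis and is also found in neutrophils and monocytes, rose by 3.18, 2.68 and 1.85. MITF, a transcription factor of mast cells, fell by 1.53 at 2 h and rose by 1.11 at 4 h and 1.45 at 8 h.

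Genes that carry the signal of the IgE receptor moved both ways in the LR12 arm. Of 20 listed, 19 were tested, with 8 higher and 4 lower at 2 h, 4 and 4 at 4 h, then 5 and 5 at 8 h. With arrays centred there were 8 higher and 3 lower at 4 h and 8 and 4 at 8 h. The 3 adaptor and enzyme genes FYN, LAT and PLCG1, which T cells also use, fell by 1.50, 1.58 and 1.73 at 8 h. CSF2RB, the shared receptor chain for interleukin-3, interleukin-5 and GM-CSF, rose by 0.88 at 2 h, 1.42 at 4 h and 1.22 at 8 h. FCER2, the low-affinity IgE receptor of B cells, fell by 1.41 at 2 h and 1.82 at 8 h.

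Of 20 other eosinophil genes, 14 were tested. In the LR12 arm 2 were higher and 0 lower at 2 h, 2 and 2 at 4 h, then 2 and 1 at 8 h. EPX fell by 1.78 at 4 h (limma adjusted p = 0.0151), and OLIG2 fell by 2.65 at 8 h. TRIB1, which is not limited to eosinophils, rose by 2.72, 1.94 and 1.28. In the peptide control arm at 8 h 0 of the 51 tested genes of the mast cell and basophil, IgE signalling and eosinophil lists were called by limma, and 7 had an unadjusted p below 0.05.

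Markers of other blood cells moved in the same samples. In the LR12 arm 16 of 18 T cell markers and 6 of 9 natural killer cell markers were called lower at 8 h, with medians of -1.76 and -1.38. None of either list was higher. Of 15 mature neutrophil markers, 10 were higher and 1 lower at 8 h, with a median of 0.90. Summed intensity of the T cell markers ran from 11447 to 19771 at 0 h and from 2449 to 7029 at 8 h, and that of the neutrophil markers from 5195 to 11380 and then from 19070 to 23363. The sum over the listed genes with a probe set ran from 885 to 1232 and then from 171 to 216 in the LR12 arm. In the peptide control arm that sum ran from 524 to 950 at 0 h and from 224 to 273 at 8 h. In the vehicle arm it ran from 329 to 1558 and then from 181 to 515.

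Dendritic cells also carry FCER1A, and their markers moved both ways. Of 13 tested, 3 were higher and 4 lower at 2 h, and 2 higher and 5 lower at both 4 and 8 h, or with arrays centred 2 and 3 at 4 h, then 3 and 3 at 8 h. LILRA4, a marker of plasmacytoid dendritic cells, fell by 3.25, 2.64 and 2.81. CD1C, a marker of conventional ones, fell by 1.88 at 2 h, and by 1.04 and 1.06 at 4 and 8 h, where the calls were lost on centring (limma adjusted p = 0.162 and 0.180). BATF3 rose by 3.32, 2.81 and 1.93. Progenitor markers, which bear on GATA2, had 1 higher and 1 lower of 9 at 2 h, 1 and 4 at 4 h, then 0 and 3 at 8 h. With arrays centred these counts were 1 and 1 at 4 h and 0 and 2 at 8 h. The part of these cells in the changes of the listed genes was not tested.

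**Figure D4:**
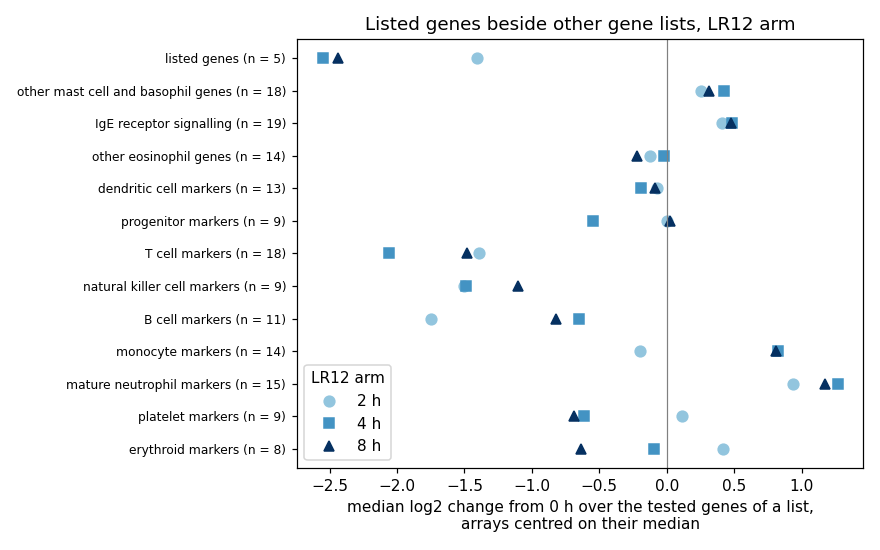
Median log2 change from 0 h over the tested genes of each list in the LR12 arm, with arrays centred on their median (horizontal axis), at 2, 4 and 8 h (circles, squares and triangles). At 8 h the centred median is -2.44 for the 5 listed genes, -1.48 for the T cell markers, 1.17 for the mature neutrophil markers and 0.32 for the other mast cell and basophil genes. The -2.44 is the value of HDC, which, like CPA3, passed the filter on low values only through early arrays, where it was high. The listed genes are therefore not ranked against the other lists.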

How the data were processed

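The deposited file gave linear intensity values of 54675 probe sets for 56 arrays. The authors made these intensities with MAS5 (per the submitters' processing notes, without version or settings). Per the labels, blood was drawn into PAXgene tubes and biotinylated cDNA was made from 50 ng of RNA. The 2% trimmed mean lay between 150.03 and 150.04 on every array.

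The deposited intensities were put on the log2 scale with no further normalization. Genes were named by the platform's probe table, in which 41097 probe sets had 1 symbol, 1801 several and 11777 none. A gene entered the tests if its probe set lay above the array median on at least 4 arrays. Of the 15953 tested genes, 13509 have their symbol in the macaque gene table.

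One limma 3.58.1 model in R 4.3.3 over 12 groups of arm and hour was fitted to all arrays, with trended and robust moderation, 30 comparisons, two-sided tests and Benjamini-Hochberg adjustment over all tested genes within a comparison. A call is an adjusted p below 0.05. The method was tested on simulated data. There, 8 h log2 changes of 2 were recovered in 59% (vehicle), 60% (peptide control) and 83% (LR12) of changed genes. Changes of 1 were recovered in 21%, 25% and 38%. The simulated arrays were drawn independently, without the correlation within an animal. Exact permutation tests used scipy 1.17.1.

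The labels name the animal of each array, so arrays are paired over hours. Values left after removing group means correlated at a mean of 0.181 within an animal and -0.0295 between animals, and 45 of 56 arrays matched best with the same animal. The blocked fit used a consensus correlation of 0.222 (statmod 1.5.0). The labels give separate animals within each group. The main fit had no animal term and shared its estimate of the spread over the 12 groups. Its p values therefore treat the arrays of an animal as independent and do not measure the spread of the paired changes.

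Alternatives were the block, centring, quantile normalization, an offset of 16, no filter, other probe sets, the array set as a covariate or split at a log2 control value of 8.75, and leaving out each animal. The members and lists were chosen with earlier results of these data known. All 8 members are named, with up to 6 called genes a list by their change at 8 h in the LR12 arm, and the 3 genes most correlated with each tested member (not all of these are printed). Levels of TPSB2, TPSG1, MRGPRX2, IL4, RNASE2, PRG3, PTGDR2, SIGLEC8 and ENPP3 were named after their values were seen. Promoter and protein sequences were not used here.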

Additional observations from a re-analysis of the deposited data

Results flagged for a closer look

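In 4 of the 60 groups examined, each the values of 1 gene in 1 arm at 1 hour, 1 animal lay far from the others, and chance gives about 1 in 20. CMA1 in the LR12 arm at 8 h was lowest in Y31311, at 1.23, with the next animal at 4.23 and the highest at 5.52. HDC in the vehicle arm at 4 h was lowest in Y31303, at -0.23, with the next at 2.75. FCER1A in the vehicle arm at 8 h was lowest in the same animal, at 4.90, with the next at 7.10. GATA2 in the vehicle arm at 0 h was lowest in Y31302, at 6.59, with the next at 7.02.

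In the fit with the animal as a block, 2 changes from 0 h differed between the LR12 and vehicle arms. The FCER1A change to 2 h differed by -1.84 (limma adjusted p = 0.0377 with the block and 0.165 without it). The CMA1 change to 8 h differed by -3.05 (limma adjusted p = 0.0158 with the block and 0.155 without it).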

How the results depend on the processing

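Of the 15 calls, the animal block, the offset of 16 and the array set as a covariate kept 15 each, and centring, quantile normalization and no filter on low values kept 14 each, the lost one being GATA2 at 8 h in the LR12 arm. With the animal as a block (the pairing), the counts of genes called were 3 at 4 h and 4 at 8 h in the peptide control arm and 1 each for the LR12 minus vehicle change to 2 h and to 8 h. Quantile normalization gave 1 call for LR12 against vehicle at 2 h (GATA2) and called GATA2 higher at 2 h with LR12 (0.64), and the offset gave 3 for the peptide control at 4 h and 4 for LR12 at 2 h. The second probe sets of FCER1A and GATA2 gave 0 for the peptide control at 4 h, 1 for LR12 at 2 h and 3 at 8 h. On arrays with low labelling controls alone, chosen after seeing the data, counts were 1 for vehicle at 2 h (CMA1, -1.87) and 3 for LR12 at 8 h, and on those with high controls 0 for the peptide control at 4 h and 0 at 8 h. Leaving out 1 animal gave 2 to 3 for LR12 at 2 h, 3 to 4 at 4 h and 3 to 5 at 8 h (3 without Y31312), and 0 to 3 for the peptide control at 4 h and 0 to 3 at 8 h (0 without Y31306). It gave 0 to 1 for LR12 against vehicle at 2 h, 0 to 1 at 4 h, 0 to 2 at 8 h and 0 to 1 for the difference of changes to 8 h. No call changed sign, but uncalled values did. Centring turned HDC vehicle 4 h (0.10), GATA2 vehicle 4 h (0.17) and HDC peptide control 2 h (0.020), and quantile normalization turned the same 3 (0.27, 0.026 and 0.012). Second probe sets turned FCER1A vehicle at 2, 4 and 8 h (0.58, 0.23 and 0.78), GATA2 vehicle 2 h (0.14), GATA2 peptide control at 2, 4 and 8 h (-0.30, -1.20 and -0.56) and GATA2 LR12 4 h (-0.17). The third GATA2 probe set, added after seeing the data, turned peptide control at 2, 4 and 8 h (-0.20, -0.84 and -0.63) and LR12 at 2 and 4 h (-0.58 and -1.74). Low-control arrays turned GATA2 vehicle 2 h (0.0042), HDC vehicle 4 h (0.53) and GATA2 LR12 4 h (-0.0153). Without 1 animal, ranges were -1.29 to 0.57 (HDC vehicle 4 h), -0.20 to 0.0574 (GATA2 vehicle 4 h), -2.57 to 0.38 (HDC vehicle 8 h), -0.39 to 0.42 (HDC peptide control 2 h) and -0.0774 to 0.22 (GATA2 LR12 4 h). The cause of these shifts was not tested. Signals of CPA3, HDC and CLC near the low end of the arrays limit their fold changes.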
